A study of Mus musculus with 2 samples.

Results

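Enzymes that add or remove methyl groups on histones and DNA, with their close partners, were examined as a set of 47 genes in C2C12 myoblasts, an established mouse line of muscle precursor cells. The set holds writers and erasers of methylation at histone H3 lysines 4, 9, 27, 36 and 79 (H3K4, H3K9, H3K27, H3K36 and H3K79), the HP1 readers of methylated H3K9, and the enzymes of DNA methylation and its removal. Its genes were chosen by name from known function, with earlier results of these data already known, and every RefSeq entry that carries such a gene symbol was taken. All 47 symbols were found, with 61 entries, among the 20128 symbols and 24165 entries of the deposited table. The measurement was GRO-seq, in which RNA polymerases already at work on genes in isolated nuclei extend their transcripts with a bromouridine label, so that sequencing of the labelled RNA reads ongoing transcription and not stored RNA. The labels give 2 libraries of 1 group, untreated C2C12 myoblasts grown to 80% confluency in high glucose medium with fetal bovine serum, with no added gene, deletion or agent. The authors pooled both libraries, so each entry has a single gene activity in RPKmM, which is sense-strand reads per kilobase of mappable gene body scaled to the size of the pooled library, or the word Inactive where the density was not above that of gene deserts. No standard deviation and no test across replicates could be had from pooled values, the depth of each library is unknown here, and the differences below have no replicate check. RPKmM is per length, so levels can be set side by side between genes, and in a bulk culture fewer transcribing cells and less transcription per cell cannot be told apart.

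Methyl groups on histone tails are written by methyltransferases, read by proteins with binding modules such as the chromodomain, and removed by demethylases. H3K4 methylation marks promoters and enhancers of active genes, H3K36 and H3K79 methylation marks transcribed gene bodies, H3K27 trimethylation is the mark of Polycomb repression, and H3K9 methylation with HP1 marks heterochromatin, including much of the chromatin at the nuclear lamina. DNA methylation at CpG sites is copied after replication by Dnmt1, guided by Uhrf1, is placed at new sites by Dnmt3a and Dnmt3b, and is oxidised by the Tet enzymes. In muscle precursors, H3K9 and H3K27 methylation are known to hold muscle genes silent until differentiation, and demethylases such as Kdm6a act when those genes are switched on.

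Promoter sequences were read from the RefSeq promoter table of build GRCm38.p6, which lists 250 bases before and 50 bases after each start, and they carry coordinates of that build while the activities were computed on mm9. Sequences were found for 39 of the 47 genes, with 55 starts. Kdm3b, Kdm4b, Kdm6b, Kmt2b, Setd1b, Kdm5a, Nsd1 and Kdm2a had no entry. Of the 55 starts, 46 (83.6%) were CpG-rich, defined as over 50% G and C with an observed to expected CpG ratio above 0.6. The share was 49.2% over all 18750 starts of genes in the activity table, 61.9% over starts of genes with an active entry and 17.2% over starts of genes without one. By gene, 37 of the 39 had at least 1 CpG-rich start, against 8131 of 15199 over all symbols with a listed start, and Kdm5c and Tet3 had none. A gene with more starts has more chances to count, and the share by gene was not computed for active symbols alone. The median starts of the set had 64.3% G and C and 28 CpG sites, against 57.7% and 15 over all starts. Over starts of genes with an active entry they were 60.3% and 19.

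Motifs were searched on both strands as exact letters, and none of them is contained in another, although the E2F and NRF1 letters can overlap. The E2F type motif, TTTCGCGC, TTTGGCGC or TTTCCCGC, stood in 5 of the 55 starts (9.09%), against 2.59% of all starts and 3.28% of starts of genes with an active entry. E2F factors are known to drive genes of DNA replication. The 5 starts belong to Dnmt1, Uhrf1, Ezh2, Suz12 and Cbx3, and they are shown because this motif had a higher share in the set, relative to all starts, than any other motif searched. The capitals mark the E2F type letters, and each line reads 5′ to 3′ along the gene.
Dnmt1, minus strand, chr9:20952574-20952873: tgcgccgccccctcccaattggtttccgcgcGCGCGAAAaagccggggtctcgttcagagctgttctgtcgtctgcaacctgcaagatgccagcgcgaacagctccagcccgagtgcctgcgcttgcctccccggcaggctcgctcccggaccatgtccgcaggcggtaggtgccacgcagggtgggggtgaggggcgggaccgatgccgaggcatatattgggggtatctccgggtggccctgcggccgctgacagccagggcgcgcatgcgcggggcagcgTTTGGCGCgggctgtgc
Uhrf1, plus strand, chr17:56304063-56304362: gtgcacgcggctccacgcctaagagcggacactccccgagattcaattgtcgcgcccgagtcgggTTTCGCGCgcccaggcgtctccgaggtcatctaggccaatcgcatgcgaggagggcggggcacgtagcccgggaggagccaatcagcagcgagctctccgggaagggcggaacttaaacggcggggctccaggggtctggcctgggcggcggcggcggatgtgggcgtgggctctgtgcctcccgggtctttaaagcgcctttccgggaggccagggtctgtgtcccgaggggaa
Ezh2, minus strand, chr6:47594981-47595280: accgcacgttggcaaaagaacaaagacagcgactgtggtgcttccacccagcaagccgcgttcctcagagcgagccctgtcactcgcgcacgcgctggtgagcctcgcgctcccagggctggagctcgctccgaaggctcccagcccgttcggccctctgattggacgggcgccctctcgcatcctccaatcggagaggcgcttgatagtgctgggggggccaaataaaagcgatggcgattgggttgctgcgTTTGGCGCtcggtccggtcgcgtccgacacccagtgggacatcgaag
Suz12, plus strand, chr11:79992856-79993155: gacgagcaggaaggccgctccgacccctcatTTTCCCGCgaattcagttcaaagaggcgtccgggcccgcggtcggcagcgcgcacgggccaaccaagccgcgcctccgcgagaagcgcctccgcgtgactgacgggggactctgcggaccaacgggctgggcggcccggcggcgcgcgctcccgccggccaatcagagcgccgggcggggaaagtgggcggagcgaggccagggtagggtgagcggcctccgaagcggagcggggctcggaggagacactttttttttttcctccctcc
Cbx3, plus strand, chr6:51470366-51470665: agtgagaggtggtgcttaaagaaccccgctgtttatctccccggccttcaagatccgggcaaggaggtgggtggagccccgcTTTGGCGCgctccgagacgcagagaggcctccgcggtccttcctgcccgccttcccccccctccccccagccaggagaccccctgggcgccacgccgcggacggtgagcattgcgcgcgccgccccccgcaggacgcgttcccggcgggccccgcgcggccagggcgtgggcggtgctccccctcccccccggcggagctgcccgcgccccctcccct

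The GC box GGGCGG stood in 40 of the 55 starts (72.7%), against 50.4% of all starts and 60.1% of starts of active genes. The CCAAT box stood in 22 of the 55, against 37.5% of all starts, and the E-box CAGCTG, which MyoD can bind, in 11 (20.0%), against 16.8%. TATAAA was found at 1 start, of Jarid2 (1.82%), against 9.91% of all starts. The ETS type letters CCGGAAG stood in 4 starts (7.27%), against 12.3%, the CRE letters TGACGTCA in 2 (3.64%), against 2.50%, and the palindromic NRF1 motif in 2 (3.64%), both of Dnmt1, against 1.48%. Over starts of active genes, the share was 37.4% for the CCAAT box, 15.9% for the E-box and 7.45% for TATAAA. It was 15.8% for the ETS type letters, 3.01% for the CRE letters and 1.89% for the NRF1 motif. The matches are descriptions of the letters in the windows, and starts of the same gene can lie close together.

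The table lists a pair of starts for Cbx5, the most active gene of the set, and only the upstream of these is CpG-rich. The single starts of the least active gene, Kdm4d, and of the low gene Dnmt3b are CpG-rich as well. The CpG-rich start of Cbx5 is shown beside them to set genes of high and low activity side by side. Capitals mark GC boxes in Cbx5 and Dnmt3b, and the ETS type letters in Kdm4d, whose GC box is not in capitals.
Cbx5, minus strand, chr15:103239803-103240102: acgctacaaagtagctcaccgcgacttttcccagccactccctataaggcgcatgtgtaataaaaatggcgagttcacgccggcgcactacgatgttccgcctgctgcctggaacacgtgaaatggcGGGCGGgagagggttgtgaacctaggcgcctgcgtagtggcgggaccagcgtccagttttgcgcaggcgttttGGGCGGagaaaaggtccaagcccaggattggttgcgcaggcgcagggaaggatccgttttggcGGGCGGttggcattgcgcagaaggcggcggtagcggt
Dnmt3b, plus strand, chr2:153649199-153649498: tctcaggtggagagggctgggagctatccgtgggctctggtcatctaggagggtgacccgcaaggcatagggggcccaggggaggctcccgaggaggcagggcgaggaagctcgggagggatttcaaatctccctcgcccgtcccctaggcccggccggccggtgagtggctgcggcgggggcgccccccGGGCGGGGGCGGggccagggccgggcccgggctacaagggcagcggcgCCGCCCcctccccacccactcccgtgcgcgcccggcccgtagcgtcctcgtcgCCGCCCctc
Kdm4d, minus strand, chr9:14500433-14500732: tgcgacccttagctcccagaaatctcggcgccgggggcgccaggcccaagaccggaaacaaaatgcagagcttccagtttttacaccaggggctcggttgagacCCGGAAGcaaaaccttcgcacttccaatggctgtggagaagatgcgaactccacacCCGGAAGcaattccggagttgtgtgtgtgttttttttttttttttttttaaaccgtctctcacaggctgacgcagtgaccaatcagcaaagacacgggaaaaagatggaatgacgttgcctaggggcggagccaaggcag
The Cbx5 window printed here held 29 CpG sites and 3 GC boxes, that of Dnmt3b 30 CpG sites and 4 GC boxes, and that of Kdm4d 17 CpG sites and 1 GC box. The other start of Cbx5, at chr15:103215303-103215602, held 8 CpG sites and 1 GC box, with an observed to expected CpG ratio of 0.358. Over the 39 genes, the rank correlation of the highest observed to expected CpG ratio with gene activity was 0.183, a description across genes that share the same libraries. The genes with the most CpG-rich starts were thus not consistently the most active.

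All 47 genes were active, and none of their 61 entries was marked Inactive. Over the whole table, 70.2% of entries and 68.7% of symbols carried an activity. For a symbol with several entries the median of its entries was taken as its level, with Inactive as 0. The median level of the 47 genes was 1.92 RPKmM (quartiles 0.963 and 2.79), against 0.26 over all symbols and 0.86 over the 13822 symbols with an active entry. A level of at least 1 RPKmM was reached by 35 of the 47 genes (74.5%), against 31.4% of all symbols. The set was thus active as a whole and lay above the middle of the table, without reaching its top, as the most active symbol of the table had 5957.39 RPKmM.

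Of the 47 genes, 36 lay above the median of active symbols, where 49.8% of those symbols lie, 10 lay below it and Kdm5b was equal to it. At or above the upper quartile of all symbols (1.36 RPKmM) lay 31 of the 47 genes, against 25.1% of all symbols. At or above the 90th percentile (3.08 RPKmM) lay 11 of the 47 genes, a larger share than the 10.0% of all symbols. These were Cbx5, Kmt2d, Setdb1, Suz12, Kdm6b, Kdm2a, Cbx1, Ezh2, Kdm4a, Kdm5c and Suv39h1, so they include HP1 readers and both writers and erasers. Most of the set, 30 genes, lay from 1 to below 4 RPKmM. A level of 4 RPKmM was reached by 5 genes, and the 90th percentile of active symbols was 4.03. Below 0.5 lay 4 genes, namely Setdb2, Dnmt3b, Tet1 and Kdm4d, and the median of all symbols was 0.26.

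**Figure D1:**
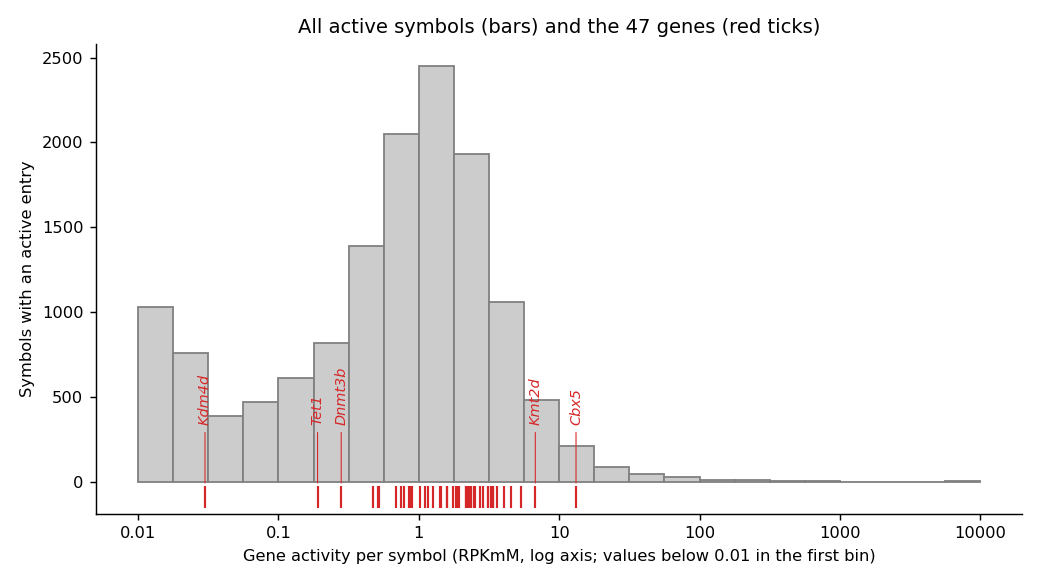
Grey bars count the symbols with an active entry by gene activity (RPKmM, log axis), and red ticks mark the levels of the 47 genes. Most ticks lie between 1 and 4 RPKmM, around and to the right of the peak of the bars, with Kdm4d at 0.03 and Cbx5 at 13.18 at the ends.

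**Figure D2:**
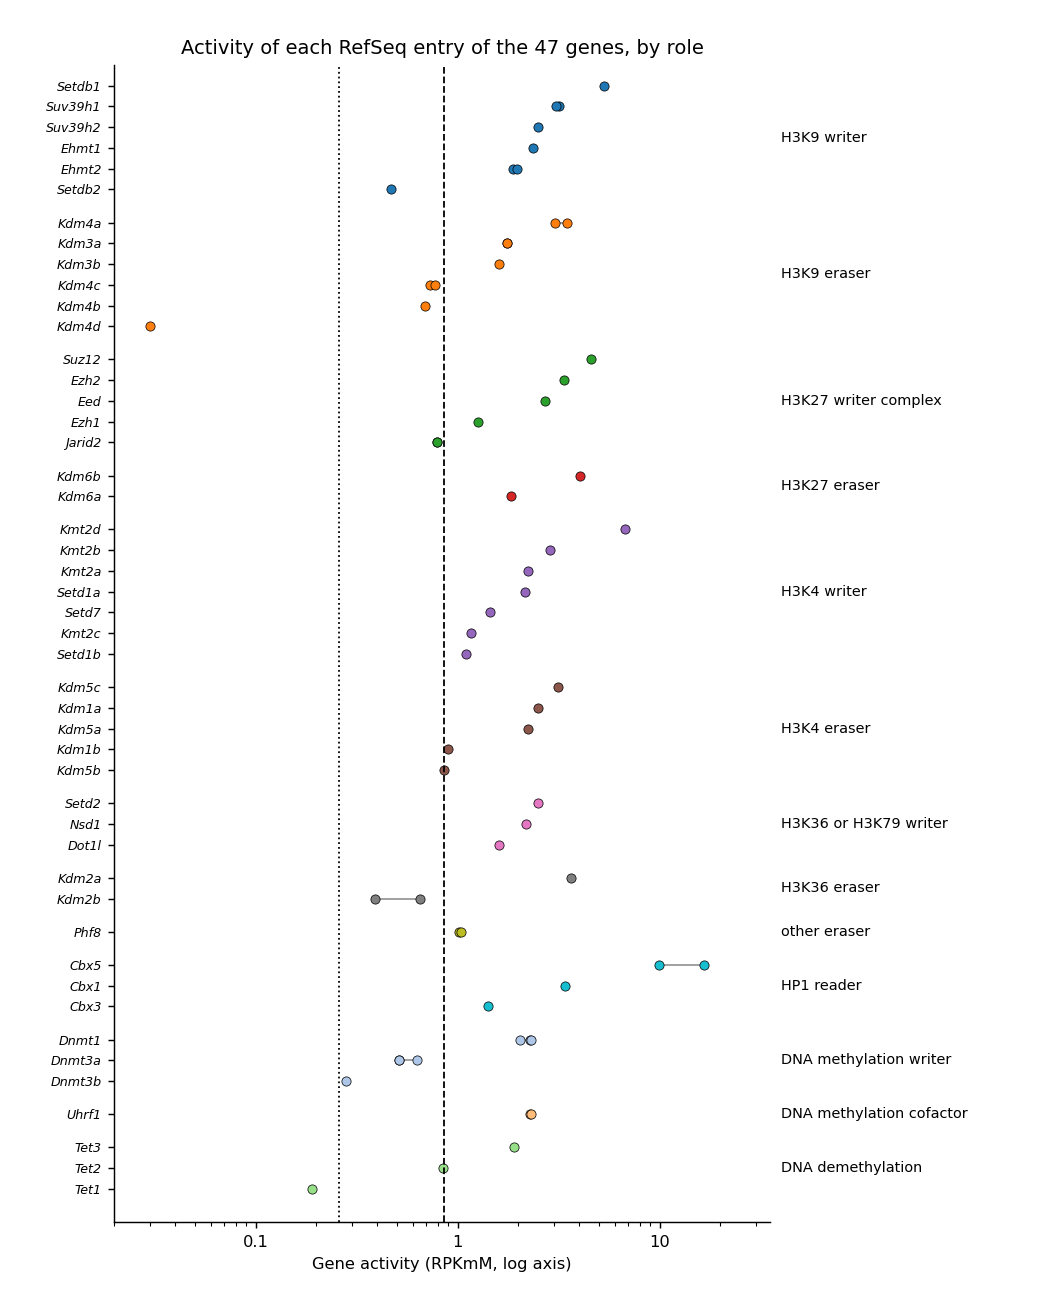
Each point is the activity of a RefSeq entry (RPKmM, log axis), lines join the entries of a gene, and genes are grouped by role and ordered by level. The dotted line is the median of all symbols (0.26) and the dashed line that of symbols with an active entry (0.86); only Kdm4d and Tet1 lie left of the dotted line.

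Among H3K9 writers, the most active was Setdb1, which works with the corepressor Trim28 to silence retroelements, at 5.31 RPKmM, above 95.3% of all symbols. Suv39h1 and Suv39h2, which place trimethylation at pericentric heterochromatin, came next, at 3.18 and 3.06 for the entries of Suv39h1 and at 2.49 for Suv39h2. Ehmt1 and Ehmt2, known as GLP and G9a, act as a heterodimer that mono- and dimethylates H3K9, and they were close to each other, with 2.35 for Ehmt1 and 1.97 and 1.87 for the entries of Ehmt2. Setdb2, a less studied relative of Setdb1, was low, at 0.47 RPKmM. The level of Setdb1 was 11.3 times that of Setdb2 and 2.77 times that of Ehmt2.

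Among the H3K9 erasers, Kdm4a, which removes trimethylation from H3K9 and H3K36, had 3.47 and 3.04 RPKmM for its entries. Kdm3a and Kdm3b, which remove mono- and dimethylation, had 1.76 and 1.6 RPKmM, and both entries of Kdm3a were equal. The Kdm4a relatives Kdm4c (0.77 and 0.73) and Kdm4b (0.69) were lower, and Kdm4d was nearly silent at 0.03 RPKmM, a value only a few rounding steps of 0.01 above 0. Kdm4d still counted as active by the comparison with gene deserts, above 10.9% of active symbols.

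The median was 2.42 RPKmM over the 6 H3K9 writers and 1.18 over the 6 erasers, a ratio of 2.06. The writer was the more active gene in 27 of the 36 pairs of a writer and an eraser. Both ranges overlap, from 0.47 to 5.31 for writers and from 0.03 to 3.26 for erasers, so the difference in medians is one of location and not a separation of the groups. With Phf8 and Kdm1a, which can also act on H3K9, counted as erasers, the ratio was 1.84.

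In the H3K27 writer complex PRC2, the zinc finger subunit Suz12 had 4.55 RPKmM, the catalytic subunit Ezh2 3.37 and Eed, which binds trimethylated H3K27, 2.72. These core subunits lay within a factor of 1.67 of each other for Suz12 over Eed. Ezh1, the alternative catalytic subunit that is known to prevail in resting and differentiated cells, had 1.26 RPKmM, and Ezh2 was 2.67 times as active. Jarid2, an accessory subunit without demethylase activity that helps recruit PRC2, was the lowest of these 5 genes at 0.79 for both entries.

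The H3K27 erasers were Kdm6b, an inducible demethylase, at 4.03 RPKmM and the X-linked Kdm6a at 1.84. Their median of 2.94 was close to the 2.72 of the 5 PRC2 genes, a ratio of writers over erasers of 0.927, and a writer was the more active in 4 of 10 pairs. With only 2 erasers, which lie on both sides of the PRC2 median, no order of writers and erasers can be read from these values.

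The H3K4 writers were all at 1 RPKmM or above. Kmt2d, the main enhancer monomethyltransferase together with Kmt2c, was the second most active gene of the set at 6.76 RPKmM, above 96.7% of all symbols, whereas Kmt2c had 1.17. Kmt2b and Kmt2a, the relatives of Drosophila trithorax, had 2.86 and 2.22. Setd1a, a main source of trimethylation at promoters, had 2.16 and its paralog Setd1b 1.1. Setd7, which monomethylates H3K4 and many other proteins, had 1.45 RPKmM.

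Among H3K4 erasers, Kdm5c had 3.13 RPKmM, Kdm1a, the LSD1 demethylase of corepressor complexes, 2.49, and Kdm5a 2.24. Kdm1b and Kdm5b were lower, at 0.9 and 0.86. The values thus fell into a higher group of 3 and a lower group of 2, with a gap between 0.9 and 2.24. The medians of writers and erasers were 2.16 and 2.24, a ratio of 0.964, and a writer was the more active in 19 of 35 pairs. The order of these medians turned to 1.38 when Kdm2b, which some work places among H3K4 erasers, was added to the erasers. The writer median of 2.16 is the level of Setd1a, an uncertain value because Hsd3b7 overlaps it on the same strand. No direction is given for H3K4.

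Writers of the marks of transcribed gene bodies lay close together, with 2.5 RPKmM for Setd2, which trimethylates H3K36 and travels with elongating polymerase, 2.17 for Nsd1, which dimethylates H3K36, and 1.6 for Dot1l, the H3K79 methyltransferase. The H3K36 erasers Kdm2a and Kdm2b, both of which bind unmethylated CpG islands, differed by a factor of 6.98. Kdm2a had 3.63 RPKmM, while the entries of Kdm2b had 0.65 and 0.39. The remaining eraser Phf8, an X-linked demethylase of H3K9 and H4K20, had 1.04 and 1.01 RPKmM.

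Over all marks, the 21 genes of histone writers and PRC2 partners had a median of 2.22 RPKmM and the 16 erasers 1.68, a ratio of 1.32. In 212 of 336 pairs (63.1%) the writer was the more active. Without the PRC2 partners Eed, Suz12 and Jarid2 the ratio over all marks was 1.31. Taken singly, the ratio was 2.06 for H3K9, 0.927 for H3K27 and 0.964 for H3K4. The ratio over all marks therefore does not hold for each mark.

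**Figure D3:**
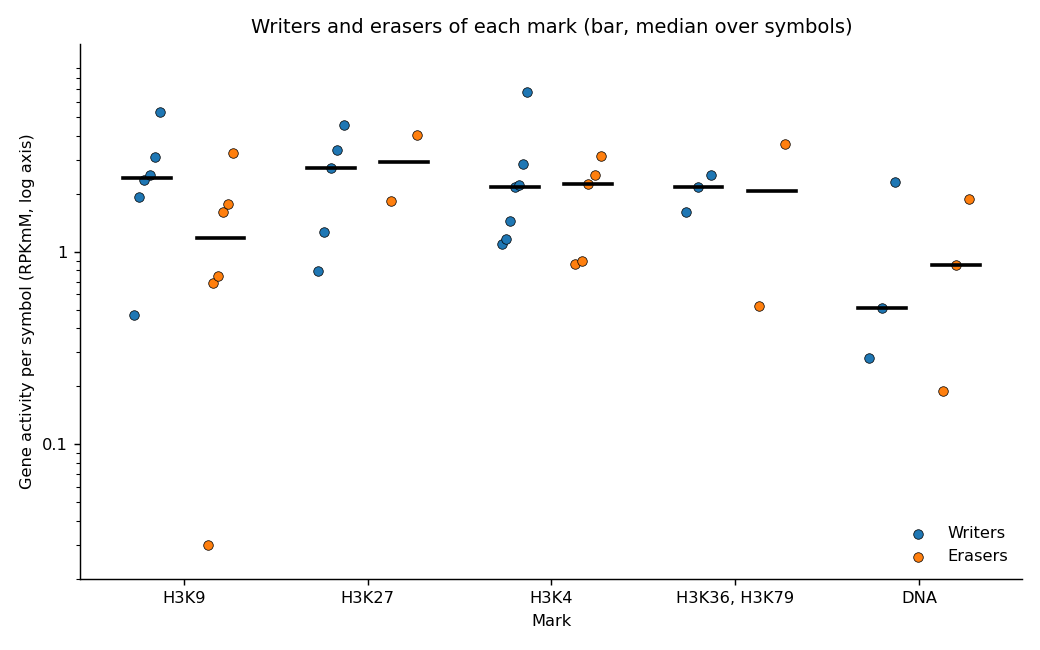
Points are levels of gene symbols (RPKmM, log axis) for writers (blue) and erasers (orange) of each mark, and black bars are medians. The bar of H3K9 writers (2.42) stands above that of H3K9 erasers (1.18), the bars for H3K27 and H3K4 are nearly level, and the points of writers and erasers overlap for every mark.

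The HP1 proteins bind methylated H3K9 through a chromodomain. Cbx5, which encodes HP1 alpha, was the most active gene of the set, with entries at 16.48 and 9.88 RPKmM and a level of 13.18, above 98.6% of all symbols. Cbx1, encoding HP1 beta, had 3.39 RPKmM and Cbx3, encoding HP1 gamma, 1.42. Cbx5 was 3.89 times as active as Cbx1 and 9.28 times as active as Cbx3, and its lower entry was still 6.96 times as high as Cbx3.

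For DNA methylation, the maintenance enzyme Dnmt1 and its partner Uhrf1 had nearly the same activity. The entries of Dnmt1 had 2.31, 2.29 and 2.04 RPKmM and those of Uhrf1 2.32 and 2.29, so their ranges overlap. The de novo enzymes were far lower. Dnmt3a had 0.63 for the entry NM_153743 and 0.51 for both others, and Dnmt3b had 0.28, so that Dnmt1 was 4.49 times as active as Dnmt3a and 8.18 times as active as Dnmt3b. Dnmt3b lay above only 27.6% of active symbols.

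The Tet enzymes were graded. Tet3 had 1.89 RPKmM, Tet2 0.85 and Tet1, which is known from pluripotent cells, 0.19, so Tet3 was 9.95 times as active as Tet1. The median of the 3 Dnmt genes was 0.51 and that of the 3 Tet genes 0.85, a ratio of 0.6, but in 5 of 9 pairs the Dnmt gene was the more active, and the ratio was 1.65 when Uhrf1 was counted with the writers. The ranges from 0.28 to 2.29 and from 0.19 to 1.89 overlap nearly completely, so no order is given for the addition and removal of DNA methylation.

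Levels of paralogs differed in most families. In 11 of the 15 families of paralogs, the highest level was at least 2 times the lowest, a count not made for other families. Differences under a factor of 2 were found for Ehmt1 over Ehmt2 (1.22), Suv39h1 over Suv39h2 (1.25), Kdm3a over Kdm3b (1.10) and Setd1a over Setd1b (1.96). The last rests on the uncertain value of Setd1a, which a same-strand gene overlaps. The widest family was Kdm4, from 3.26 RPKmM for Kdm4a to 0.03 for Kdm4d, a value too near the rounding step of 0.01 for an exact fold. It was followed by Setdb (11.3), Tet (9.95), Cbx (9.28) and Dnmt (8.18). The order within each of the 15 families was the same with the highest and with the lowest entry of each gene. In most families this could not be otherwise. Each gene of Setdb, Ezh, Kmt2, Setd1, Kdm1, Kdm5, Kdm6 and Tet has a single entry, and the entries of Kdm3a are equal. Some neighbours in these orders are nearly level, as Kdm4c exceeded Kdm4b by a factor of 1.09 and Kmt2b exceeded Kmt2a by 1.29, and without values per library it cannot be said whether they differ.

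Of the 47 genes, 12 have several entries. Entries of a gene can share gene body and reads, so they are not independent measurements. The highest entry was at least 1.5 times the lowest for 2 of these 12, Cbx5 and Kdm2b, against 18.7% of the 1886 symbols with several entries of at least 0.1 RPKmM. The ratio was 1.67 for both, and the median ratio was 1.05 over the 12 genes and 1.10 over all such symbols. The entries of this set therefore differed about as much as those of other genes. The deposited table gives no coordinates, so the part of the gene in which the entries of Cbx5 differ (NM_007626 at 16.48 and NM_001076789 at 9.88) is not given here.

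Positions came from the GENCODE vM1 annotation of mm9, in which all 47 genes were found, Kmt2a, Kmt2b, Kmt2c and Kmt2d under the older names Mll1, Wbp7, Mll3 and Mll2. The genes lie on 18 chromosomes, with Cbx5 at chr15:103021975-103070247, Kmt2d at chr15:98662100-98701614, Setdb1 at chr3:95127447-95161124 and Kdm4d at chr9:14266992-14304926, all on the minus strand. Suv39h1, Kdm6a, Kdm5c and Phf8 are X-linked and had levels from 1.02 to 3.13 RPKmM with a median of 2.48, within the range of the 43 autosomal genes, whose median was 1.92.

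The genes of this set are long, with a median span of 45.6 kb against 23.7 kb for 12815 active symbols that could be placed. Spans ran from 13.3 kb for Cbx3 to 227 kb for Kmt2c. The rank correlation of span and activity was −0.328 across the 47 genes and −0.0337 across the active symbols, as a description over genes that share the libraries. The 9 genes over 100 kb, which include Ehmt1, Jarid2 and Kmt2c, had a median of 1.02 RPKmM (0.51 to 2.35), and the other 38 had 2.23. Among all active symbols the medians were 0.68 over 100 kb and 0.92 otherwise. No gene over 100 kb exceeded 2.35 RPKmM, and the least active of the set, Kdm4d, had a span of 37.9 kb.

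**Figure D4:**
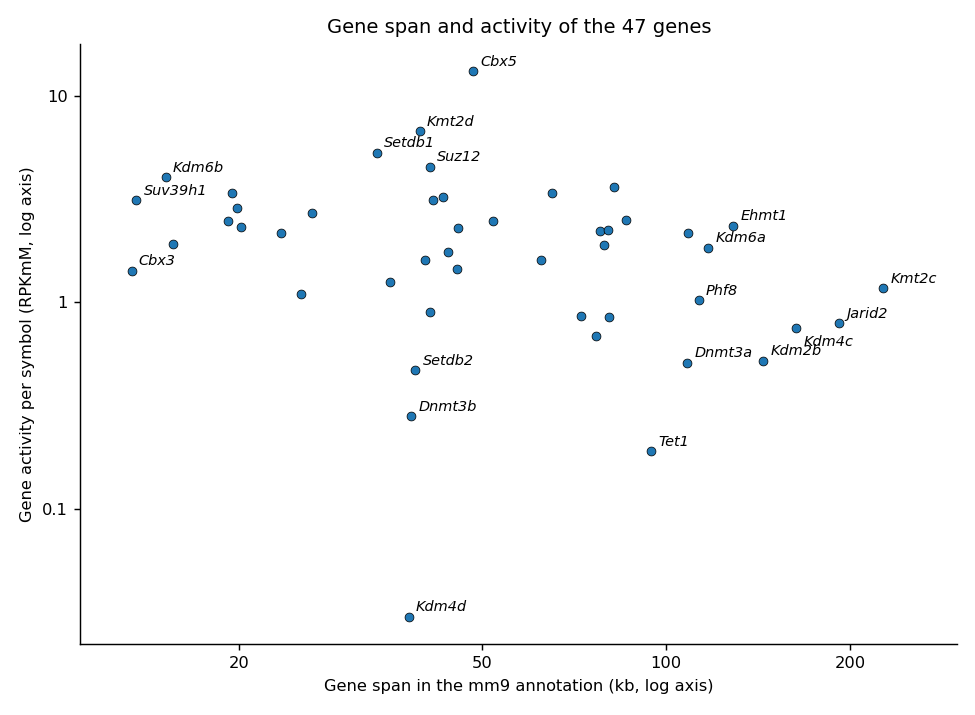
Each point is a gene of the set, with its span in mm9 (kb, log axis) and its activity (RPKmM, log axis). Genes over 100 kb reach no more than 2.35 RPKmM (Ehmt1), while shorter genes cover the whole range from Kdm4d at 0.03 to Cbx5 at 13.18.

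For 11 genes of the set a gene of the opposite strand starts within 1 kb in GENCODE vM1, and 9 of these partners are in the activity table. Neighbours were not counted over all genes, so it cannot be said whether this number is unusual. The starts of Cbx5 and Cbx3 each face an hnRNP gene that encodes an RNA-binding protein of the nucleus, at 698 bases for Cbx5 and Hnrnpa1 and at 466 bases for Cbx3 and Hnrnpa2b1. Hnrnpa1 had 56.24 RPKmM beside the 13.18 of Cbx5, and Hnrnpa2b1 had 113.32 beside the 1.42 of Cbx3. The partner was thus far more active in both arrangements, although Cbx5 and Cbx3 themselves were the highest and the lowest HP1 gene.

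The other partners in the table showed no common pattern. Kdm4d (0.03) starts 135 bases from Cwc15, which had 0.56 RPKmM, so an active gene lies directly beside the least active member. Kdm2b (0.52) faced Orai1 at 0.49, Setdb2 (0.47) faced Cab39l at 0.61 and Kdm5a (2.24) faced Ccdc77 at 1.18. The lncRNA partners of Kmt2c and Tet3 had 0.12 and 0.11 RPKmM, and the complement gene beside Ehmt2 was inactive. In 4 of the 9 arrangements the partner was the more active.

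Reads of a same-strand neighbour cannot be told apart where the spans overlap. A protein-coding gene of the same strand overlapped 1 gene of the set, as Hsd3b7 (0.97 RPKmM) and Setd1a (2.16) share 14515 bases in GENCODE vM1, so their values are uncertain. The other same-strand overlaps, at 4 genes, were with short noncoding genes or pseudogenes. The counting used the sense strand, so genes on the opposite strand do not add reads. Cbx3 is known to have processed pseudogenes, whose exon copies reduce the bases at which reads map uniquely, and the unit is per mappable base.

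The other genes of the same pathways were read from a list of 88, of which 85 were active and 60 reached 1 RPKmM, with a median of 1.48 RPKmM. Their most active genes were Prmt5 (8.69), an arginine methyltransferase, Trim28 (8.58), the partner of Setdb1, and Cbx6 (7.67), a Polycomb chromodomain protein. The inactive genes were Prdm16, which acts in brown fat, Dnmt3l, the germ cell cofactor of the de novo DNA methyltransferases, and Prmt8, a brain enzyme. Dnmt3l thus lay below even Dnmt3a and Dnmt3b.

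By group, the 6 accessory subunits of PRC2 had the highest median, at 2.65 RPKmM, near the 2.72 of the PRC2 genes in the set. The 10 partners of DNA methylation had 2.01, the 11 subunits of COMPASS, the scaffold of the Kmt2 and Setd1 enzymes, 1.9, and the 7 partners of the H3K9 pathway 1.67. The 18 genes of PRC1, the second Polycomb complex, had 1.36, the 8 arginine methyltransferases 1.38, the 21 other lysine methyltransferases 1.33 and the 7 other demethylases 1.17. The medians of PRC2 accessory subunits and of DNA methylation partners were thus above the 1.92 of the set, and those of the other groups of this list were below it.

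Enzymes of histone acetylation were the nearest set for comparison. The 10 acetyltransferases were all at 1 RPKmM or above, with a median of 1.97, led by Kat7 (3.88), Kat2a (2.93) and Ep300 (2.78). The 18 deacetylases were all active with a median of 1.04, and 10 reached 1 RPKmM. The acetyltransferases thus lay near the median of the 47 genes, 1.92, and the deacetylases below it, with no test of the difference as genes are not replicates.

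**Figure D5:**
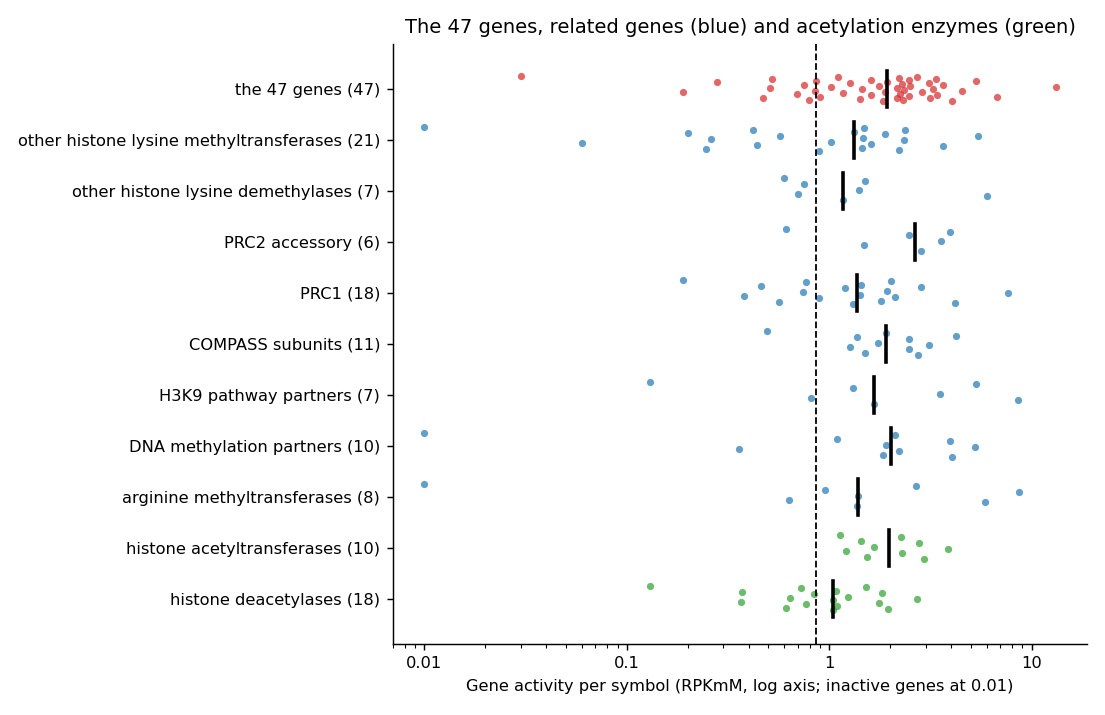
Points are levels of gene symbols (RPKmM, log axis, inactive genes drawn at 0.01), black bars are medians, and the dashed line is the median of active symbols (0.86); numbers in parentheses count genes. The median of the 47 genes (red, 1.92) lies beside those of COMPASS subunits (1.9) and acetyltransferases (1.97), and that of deacetylases (1.04) lies nearest the dashed line.

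The labelled cell type was checked with markers. All 7 genes listed as markers of myoblasts were active, with Des at 72.45 RPKmM, Chrna1, a receptor gene that is also known to rise on differentiation, at 15.62, Itga7 at 13.29, Cdh15 at 8.08, Myf5 at 5.03, Myod1 at 2.39 and Msc at 0.82. Of 9 genes of differentiated myotubes all were active too, with Acta1 at 6.85, Myh3 at 5.28, Mylpf at 5.18, Myh1 at 1.56 and Tnnt3 at 0.83, while Ckm, Myh4, Mb and Myh2 lay from 0.01 to 0.2. Transcription of some differentiation genes was therefore present in these cultures, and its part in the values of the 47 genes was not tested. Markers of pluripotent cells (Pou5f1, Nanog, Zfp42 and Dppa3) were inactive in 4 of 4 cases.

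Markers of the remaining cell types were at or near 0. Of the germ cell genes, Ddx4, Dazl and Tex101 were inactive and Sycp3 had 0.02 RPKmM. Of the blood cell genes, Ptprc, Spi1 and Itgam were inactive and Cd3e had 0.01, and of the endothelial genes Pecam1 and Tek had 0.01 and Cdh5 was inactive. Epcam, Krt8 and Krt18 of epithelia were inactive with Cdh1 at 0.02, and Rbfox3 and Snap25 of neurons were inactive with Syt1 at 0.01, whereas Tubb3, a tubulin gene, had 6.01 RPKmM.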

How the data were processed

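A single deposited table holds the activity of each RefSeq entry. Per the labels and methods, the authors aligned GRO-seq reads of 2 libraries to mm9 (Bowtie2), with repeated passes for reads trimmed further each time. They dropped multiply mapped, rRNA and tRNA reads and pooled the libraries. They deposited RPKM over mappable bases (RPKmM) from 1 kb past the TSS, rounded to 2 decimals. This unit was taken from the column name and methods, as 7208 cells hold the word Inactive. Pooling hides variation between libraries, and the table itself gives no depth.

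A symbol's level was the median of its entries, with Inactive as 0. Counts, medians, ratios and pair counts were computed, with no test. The gene set, lists and comparisons were chosen with earlier results of these data known. All 47 genes and all markers but 1, which is not reported here, are named; of the other lists, the 3 highest and every inactive gene. Genes beside a member were named after their values were seen. Of the listed genes, 2 matched through another name and 1 was not matched. Spans came from GENCODE vM1 (mm9) and promoters from RefSeq (GRCm38.p6). The computations were tested on simulated data. Alternatives were the highest or lowest entry, each entry by itself, active symbols only, geometric means with a pseudocount of 0.01 or 0.1, a minimum of 0.1 RPKmM, autosomes only, other memberships and a promoter window of 150 bases. Python 3.11.15, pandas 2.3.3, numpy 2.4.6, scipy 1.17.1 and matplotlib 3.10.9 were used.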

Additional observations from a re-analysis of the deposited data

How the results depend on the processing

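Values were recomputed under 53 alternatives, and a value was taken as moved where it differed by more than 1.5 times or, for a ratio of writers over erasers, as turned where it crossed 1. Of these, 47 changed neither way and 6 turned a ratio. Several of the 47 could not change, so their number is no measure of stability. All genes of the set are active, so taking active symbols only repeats the main values. Every H3K4 gene has a single entry, so the choice of entry repeats the H3K4 ratio. For H3K4 the ratio of 0.964 became 1.24 with geometric means and a pseudocount of 0.01, 1.22 with a pseudocount of 0.1 and 1.38 with Kdm2b among the erasers. For DNA methylation the ratio of 0.6 became 1.02 and 1.00 with geometric means and pseudocounts of 0.01 and 0.1, and 1.65 with Uhrf1 among the writers. Both main ratios are close to 1 or rest on 3 genes a side, and the cause was not tested. The H3K9 ratio stayed above 1 under its 8 alternatives, from 1.51 to 2.78, as did the ratio over all histone marks, from 1.26 to 1.67. The H3K27 ratio stayed below 1, from 0.678 to 0.927, with 0.789 for Ezh1 and Ezh2 alone as writers. The median level of the set ranged from 1.89 to 2.04 RPKmM. Its geometric mean was 1.60 with a pseudocount of 0.01 and 1.76 with 0.1. The ratio of the centre of the set to the same centre over all symbols, which is not among the 53, was 7.38. It moved by more than 1.5 times to 4.02 with geometric means and a pseudocount of 0.1, to 2.23 with active symbols only and to 1.71 with activities of at least 0.1 only. It was 9.59 with a pseudocount of 0.01. No library could be left out and no paired analysis was possible because the libraries were pooled into a single value per entry. Values below about 0.1 RPKmM, here Kdm4d, are limited by rounding and depth.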

Other observations

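For 5 genes of the set, a gene of the same strand ends within 5 kb before the start in the GENCODE vM1 annotation of mm9. The share over all genes was not counted. Uhrf1 (2.31 RPKmM) ends 2576 bases before Kdm4b (0.69), so that a cofactor of DNA methylation and an H3K9 demethylase are direct neighbours. Zbtb12 (4.78) ends 1627 bases before Ehmt2 (1.92), Fam53c (1.58) ends 3248 bases before Kdm3b (1.6), Orai3 (0.34) ends 1520 bases before Setd1a (2.16), and the inactive Zbtb32 ends 955 bases before Kmt2b (2.86). These neighbours were chosen after their values were seen.

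Apart from the divergent pairs described above, 21 genes of the set have an annotated gene on the opposite strand of their span. Of them, 8 have such a partner in the activity table. The share over all genes was not counted, and the spans of this set are long. Luzp1, whose span overlaps that of Kdm1a (2.49) by 4241 bases, had 4.0 RPKmM over its own gene body. Cers2, whose span overlaps that of Setdb1 (5.31) by 64 bases, had 11.71 RPKmM over its own gene body. These were the partners more active than the gene of the set. Dclre1c, opposite Suv39h2 (2.49), had 0.82, and Tpmt, opposite Kdm1b (0.9), had 0.8. Dnmt3aos, the antisense transcript of Dnmt3a (0.51), was inactive.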
